A study of Mus musculus with 10 samples.

Results

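The genes described here encode the subunits of the mitochondrial respiratory chain and of ATP synthase, and their RNA was compared between Nrf2 and control eyes in the RPE (retinal pigment epithelium), a single layer of pigmented cells behind the retina. They were chosen by gene symbol alone: protein-coding genes of the Nduf (without the Ndufaf assembly factors), Sdha to Sdhd, Uqcr, Cox4 to Cox8 and Atp5 families, and the protein genes of the mitochondrial DNA. This gave 98 of the 47729 genes in the count table, of which 85 lie in the nuclear genome and 13 in the mitochondrial genome. By complex, 45 genes belong to complex I, 4 to complex II, 9 to complex III, 21 to complex IV and 19 to complex V. A further 11 rows that matched by name were not protein-coding and were left out. The name rule also takes in Cox7a2l, which is known as a supercomplex factor, Ndufa4, which is counted here by name with complex I although its protein is now placed in complex IV, its relative Ndufa4l2, and Atp5s, a gene related to ATP synthase that is not one of its core subunits.

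The samples came from 5 wild-type CD1 mice, an outbred stock, at postnatal day 40, and each mouse gave 1 library per eye. Both eyes received an adeno-associated virus (AAV) that drives GFP from the Best1 promoter, which is active in the RPE, and the Nrf2 eye received in addition an AAV with the human Nrf2 coding sequence behind the same promoter. Nrf2 protein activates the transcription of antioxidant genes. There was no eye with an inactive vector added in the same amount, so the added vector and Nrf2 itself cannot be told apart. RNA was taken from the opened eyecup after the retina had been removed, polyA RNA was amplified from it, and other cell types of the eyecup could therefore contribute.

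The respiratory chain lies in the inner mitochondrial membrane. Complexes I and II take electrons from NADH and succinate, coenzyme Q, complex III and cytochrome c pass them on to complex IV, where oxygen is reduced, and complex V (ATP synthase) uses the proton gradient that results to make ATP. Each complex other than complex II joins subunits of nuclear and of mitochondrial genes, and the nuclear subunits range from catalytic ones to accessory ones around the core. The RPE is known to rely on oxidative metabolism in its mitochondria, which spares glucose for the photoreceptors.

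The libraries held between 12298404 and 27310638 counts. Levels are given below as CPM, which are counts scaled to a common library size, by the TMM method, with the mean ± SD of 5 eyes per group. Nfe2l2, the mouse gene of Nrf2, had 78.4 to 112 CPM in control eyes and 277 to 437 CPM in Nrf2 eyes, and was higher in the Nrf2 eye of 5 of 5 mice, although reads of the human transgene can be among these counts. All 10 RPE markers had counts in every library, and their summed level ran from 21107 to 42802 CPM in control eyes and from 10417 to 29884 CPM in Nrf2 eyes. Of the 10, 5 passed the test as lower, against 2.73% of all tested genes, while 3 had a log2 fold change above 0. The summed level of 10 macrophage and microglia markers was 25.4 to 47.7 CPM in control and 270 to 1461 CPM in Nrf2 eyes. All 10 of these passed the test as higher, against 3.60% of all tested genes. The summed level of 10 rod markers was 153 to 18419 CPM in control and 315 to 7227 CPM in Nrf2 eyes, with both eyes of mouse 2 above all others. In such bulk RNA, fewer cells of a type and less RNA per cell cannot be told apart.

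Of the respiratory chain subunit genes, 1 passed the test between the Nrf2 and the control eyes. Of the 98 genes, 96 had enough counts to be tested. The edgeR quasi-likelihood test with the mouse as a block, adjusted by the Benjamini-Hochberg method over 16362 genes, called 1 of these 96 lower (Ndufb11 of complex I) and 0 higher. Among all tested genes 6.33% were called, 3.60% higher and 2.73% lower, beside 1 of 96 here. DESeq2 called 1 member lower, Ndufb11, and 0 higher, among 1798 genes in all. An unadjusted p under 0.05 was found in 7 of the 96 members, against 19.1% of all tested genes. Of these, 5 were lower, against 9.53%, and 2 higher, against 9.58%.

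Most differences were small in the nuclear members and less so in the mitochondrial ones. The fitted log2 fold change (Nrf2 over control) lay within 0.25 of 0 in 80 of the 96 members, where 58.4% of all tested genes did, and within 0.5 in 94 members, against 80.0%. All 5 within-mouse differences lay within 1 log2 unit in 90 members, against 61.9% of all tested genes, and within 0.5 log2 units in 65 members, against 28.5%. All 65 of the latter were nuclear. Of the 13 mitochondrial genes, 0 lay within 0.5 in every mouse, and 7 had a fitted value within 0.25. The members were abundant, with a mean log2 CPM of 7.13 ± 0.19 in control eyes (SD over 5 eyes) where the mean over all tested genes was 3.82, and the part of this abundance in their narrow spread was not tested. The control and Nrf2 eyes of 0 members were fully separated in either direction, against 3.87% of all tested genes higher and 2.25% lower. In all 5 mice the Nrf2 eye was lower for 12 members and higher for 5, against 10.9% and 9.23% of all tested genes.

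The nuclear genes of each of the 5 complexes had a median close to 0. The 38 nuclear genes of complex I had a median log2 fold change of -0.07 (range -0.60 to 0.36), and 30 of them were below 0. The 4 genes of complex II had a median of -0.06 (-0.11 to -0.02), the 8 nuclear genes of complex III a median of -0.08 (-0.15 to 0.13), and the 16 tested nuclear genes of complex IV a median of 0.00 (-0.32 to 1.40). The 17 nuclear genes of complex V had a median of -0.09 (-0.42 to 0.18). Over all 83 tested nuclear members 20 were above 0, against 48.7% of all tested genes, and the median was -0.06 beside -0.01 for all tested genes, but this median was 0.02 without mouse 4 and -0.01 with the rod markers as a covariate. This median was -0.12 without mouse 5, so the size and sign of so small a shift depended on which mouse was left out. The median nuclear difference was -0.06, -0.11, -0.03, -0.23 and 0.12 in mice 1 to 5. In mouse 4 the rod marker sum was 2998 CPM in the control eye against 317 CPM in the Nrf2 eye. The mean log2 difference of the rod markers was -4.64 in mouse 4, and 0.82, -1.18, -0.32 and 0.04 in mice 1, 2, 3 and 5. The rod covariate thus varied most within mouse 4, and the part of rod RNA in the shift was not tested.

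**Figure D1:**
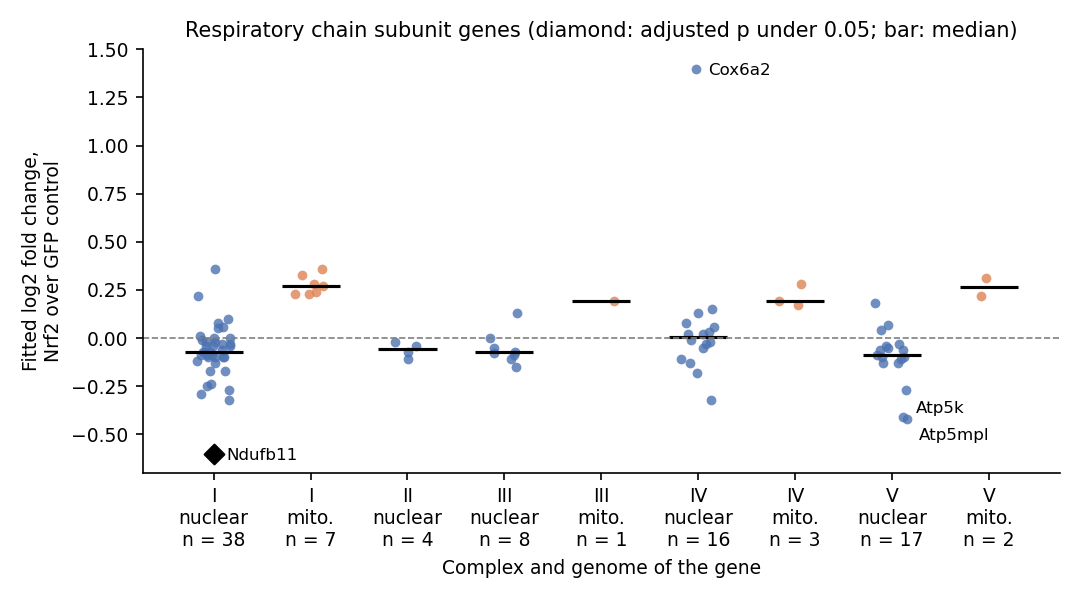
Fitted log2 fold changes, Nrf2 over GFP control, of the 96 tested genes (1 point per gene), split along the horizontal axis by complex and by the genome that holds the gene, with black bars for medians. The nuclear groups lie around 0 with medians from -0.09 to 0.00, the 13 mitochondrial genes (orange) lie between 0.17 and 0.36, and the black diamond is Ndufb11, the only member with an adjusted p under 0.05.

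The nuclear core genes lay close to 0. Over 11 nuclear genes of core subunits of complexes I, III and V the median log2 fold change was -0.05, and all 11 lay between -0.11 and 0.01. The mitochondrial genes are described further below. Ndufs1, whose protein carries iron-sulphur clusters at the entry of complex I, had 109 ± 11.5 CPM in control and 109 ± 17.7 CPM in Nrf2 eyes (SD, n = 5 each), and its log2 fold change was 0.00 (SE 0.16). Ndufv1, which binds NADH, had 148 ± 15.7 and 143 ± 6.02 CPM, a log2 fold change of -0.04 (SE 0.05). Its partner Ndufv2 stood at -0.02 (SE 0.04). Other core genes of complex I, along the path of electrons to coenzyme Q, had log2 fold changes of 0.01 in Ndufs3 (SE 0.05), -0.10 in Ndufs7 (SE 0.11) and -0.10 in Ndufs8 (SE 0.04). None of these genes had an adjusted p under 0.589.

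In complex III, Uqcrc1, a core protein gene, had 366 ± 19.5 CPM in control and 345 ± 14.9 CPM in Nrf2 eyes, with a log2 fold change of -0.08 (SE 0.05). Uqcrc2, the other core protein gene, stood at 0.00 (SE 0.03), and Uqcrfs1, the gene of the Rieske iron-sulphur protein, at -0.11 (SE 0.08). In complex V, Atp5b, which encodes the catalytic beta subunit, had 1423 ± 162 CPM in control and 1371 ± 146 CPM in Nrf2 eyes, a log2 fold change of -0.05 (SE 0.08). The alpha subunit gene Atp5a1 stood at -0.09 (SE 0.10), with 905 ± 82.7 and 853 ± 108 CPM. None of these 5 genes had an adjusted p under 0.662 in edgeR, which does not show that their levels were equal, and the difference of means was smaller than the SD of the control eyes for all of them except Uqcrc1.

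Complex II, the succinate dehydrogenase, is the complex without a mitochondrially encoded subunit. Sdha, the flavoprotein gene, had 446, 398, 420, 343 and 348 CPM in the control eyes of mice 1 to 5 and 321, 327, 438, 410 and 405 CPM in their Nrf2 eyes. The Nrf2 eye was higher in 3 mice and lower in 2, and the groups overlapped throughout (log2 fold change -0.04, SE 0.14, adjusted p = 0.925 in edgeR). Sdhb, the iron-sulphur subunit gene, stood at -0.02 (SE 0.05, adjusted p = 0.945), with 171 ± 8.47 and 169 ± 16.7 CPM. The membrane anchor genes Sdhc and Sdhd stood at -0.07 (SE 0.08, adjusted p = 0.809) and -0.11 (SE 0.08, adjusted p = 0.650).

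Sequence near the gene starts was examined because the nuclear subunit genes are known targets of a few shared regulators, and because Nrf2 itself binds antioxidant response elements. RefSeq promoter windows (GRCm38.p6) were found for 69 of the 85 nuclear members, and the 250 bases before the start were searched on both strands. The motif of nuclear respiratory factor 1 (GCGCA, any base, GCGC) was present in 13 members (18.8%) and in 4.23% of 27025 genes searched alike. It is shown in capitals in the gene's own direction for 5 members, chosen to cover 4 complexes.

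Sdha (chr13:74350241-74350270, minus strand): cgacacccgcgcgactcggtGCGCAAGCGC
Sdhd (chr9:50603909-50603938, minus strand): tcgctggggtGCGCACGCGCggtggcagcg
Ndufs5 (chr4:123718265-123718294, minus strand): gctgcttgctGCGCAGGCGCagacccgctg
Cox6a1 (chr5:115349056-115349085, minus strand): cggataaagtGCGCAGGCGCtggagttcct
Atp5k (chr5:108434430-108434459, minus strand): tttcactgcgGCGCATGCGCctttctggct

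The core letters of the antioxidant response element, TGACNNNGC, were present in 6 of the 69 members (8.7%) and in 11.5% of the genes searched alike. They are shown for 4 of the 6, since these letters are those of the factor that was delivered. In Ndufv2 they lie on the opposite strand and read as their reverse complement.

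Ndufs5 (chr4:123718395-123718424, minus strand): ttctcgagtgTGACCTTGCtcaagtagcac
Ndufa9 (chr6:126849153-126849182, minus strand): agataccattTGACCCCGCgttgttgccgt
Atp5o (chr16:91931793-91931822, minus strand): tcaacgatgtTGACGATGCatgtgcaaaga
Ndufv2 (chr17:66101608-66101637, minus strand): ctcgcgcgccGCTGCGTCAggaacggcgta

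The ETS motif CCGGAAG was present in 12 members (17.4%) and in 7.83% of genes. Ndufs5 held both of the other motifs, and Atp5h, Cox6a1 and Sdhd held the ETS motif together with that of nuclear respiratory factor 1. The median log2 fold change was -0.09 in members with the motif of nuclear respiratory factor 1 and -0.06 in those without, -0.06 with and -0.06 without the antioxidant response letters, and -0.05 with and -0.06 without the ETS motif. The members thus had like medians with and without each motif. A match is only a description of letters in a window, and no test was made of these medians.

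Ndufb11 was the only member that passed the test. It is an X-linked accessory subunit gene of the membrane arm of complex I (ENSMUSG00000031059, chromosome X, 20615326 to 20617619, minus strand, mm10). The control eyes of mice 1 to 5 had 199, 203, 243, 288 and 177 CPM, and their Nrf2 eyes 148, 126, 177, 135 and 139 CPM. The Nrf2 eye was lower in every mouse, while the lowest control eye and the highest Nrf2 eye both stood at 177 CPM, so the groups touch. The log2 fold change was -0.60 (SE 0.13, adjusted p = 0.0360 in edgeR), and the within-mouse differences ran from -1.09 in mouse 4 to -0.35 in mouse 5. The call was lost with the rod markers as a covariate (-0.45, adjusted p = 0.0625) and when any 1 mouse was left out (-0.66 to -0.45, adjusted p from 0.0620 to 0.163). The spans of Ndufb11 and of Rbm10, on the opposite strand, overlap by 117 bases, and the strand setting of the counting is not given in the sources used here. Rbm10 had 44.3 ± 4.83 and 38.2 ± 2.44 CPM (log2 fold change -0.21, adjusted p = 0.309). The promoter window of Ndufb11 held none of the 3 motifs.

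The next lowest values came from accessory subunits of complexes I and V and from Cox8b, and none of them passed the test. Atp5k, the gene of subunit e, which is known to help ATP synthase dimers form, had 86.3, 82.8, 107, 138 and 78.1 CPM in control eyes and 66.5, 68.9, 85.4, 74.2 and 68.4 CPM in Nrf2 eyes. It was lower in the Nrf2 eye of every mouse, with overlapping groups (log2 fold change -0.41, SE 0.12, adjusted p = 0.107). Atp5mpl, the gene of a small proteolipid that copurifies with ATP synthase, had 128, 118, 148, 204 and 112 CPM in control eyes and 103, 96.5, 117, 104 and 97.3 CPM in Nrf2 eyes. It too was lower in 5 of 5 mice (-0.42, SE 0.14, adjusted p = 0.120). Ndufb3, an accessory gene of the membrane arm of complex I, stood at -0.29 (SE 0.08, adjusted p = 0.143), and its levels were 76.6 to 93.2 CPM in control and 62.4 to 76.9 CPM in Nrf2 eyes.

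The size of these values rested in part on mouse 4. Its difference was the most negative of the 5 mice for Ndufb11 (-1.09), Atp5mpl (-0.96), Atp5k (-0.89) and Ndufb3 (-0.58). Ndufv3, an accessory gene of the NADH-binding arm, stood at -0.32 (SE 0.18, adjusted p = 0.320), and its control eyes had 160, 129, 157, 250 and 128 CPM beside 141, 108, 157, 124 and 114 CPM in the Nrf2 eyes. The control eye of mouse 4 was far above the rest for this gene, and the log2 fold change was -0.12 without that mouse. Without mouse 4 the values of Atp5mpl, Atp5k and Ndufb3 were -0.25, -0.26 and -0.18. With the rod covariate Atp5mpl and Atp5k both stood at -0.28 (adjusted p = 0.256 for Atp5mpl and 0.259 for Atp5k in edgeR). Ndufb3 stood at -0.21 in that fit (adjusted p = 0.356).

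**Figure D2:**
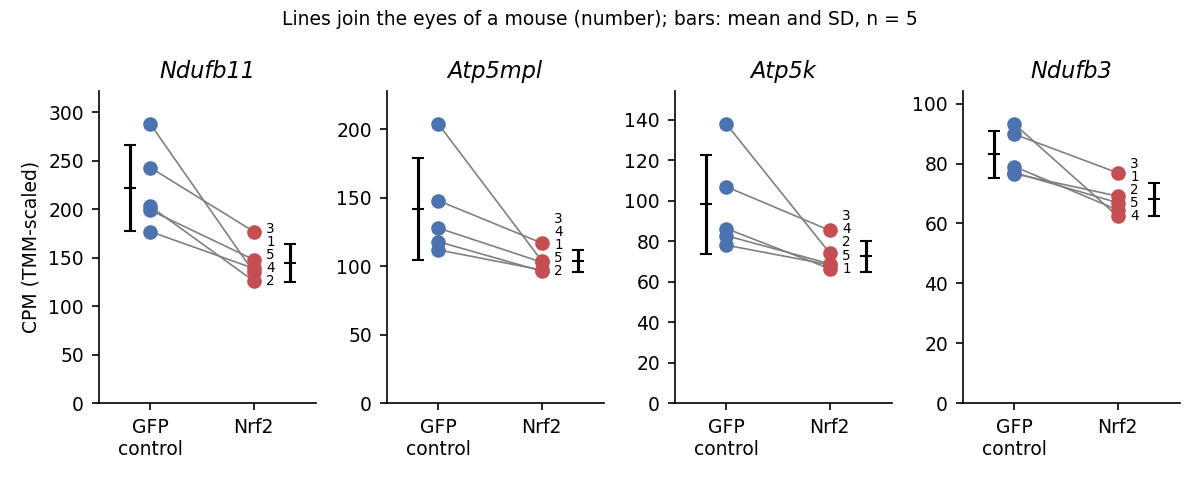
Levels in TMM-scaled CPM of 4 genes that were lower in the Nrf2 eye of all 5 mice, with lines that join the eyes of a mouse (numbered) and black bars for the mean and SD of 5 eyes. For all 4 genes the control eye of mouse 4 is the highest control eye, and for Ndufb11 the means are 222 and 145 CPM.

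The 13 genes of the mitochondrial DNA were all above 0, and none passed the test. Their log2 fold changes ran from 0.17 (mt-Co2) to 0.36 (mt-Nd3), with a median of 0.24 beside -0.06 for the nuclear members. The 12 genes of the heavy strand are cut from shared long transcripts and mt-Nd6 is read from the other strand, so the 13 values are not independent. The 7 complex I genes stood at 0.33 (mt-Nd1, SE 0.14), 0.24 (mt-Nd2, SE 0.15), 0.36 (mt-Nd3, SE 0.21), 0.23 (mt-Nd4, SE 0.15), 0.28 (mt-Nd4l, SE 0.14), 0.27 (mt-Nd5, SE 0.17) and 0.23 (mt-Nd6, SE 0.19). The cytochrome b gene of complex III, mt-Cytb, stood at 0.19 (SE 0.15). The 3 mitochondrial genes of complex IV stood at 0.19 (mt-Co1, SE 0.15), 0.17 (mt-Co2, SE 0.14) and 0.28 (mt-Co3, SE 0.15), and the genes of complex V at 0.22 (mt-Atp6, SE 0.14) and 0.31 (mt-Atp8, SE 0.12). The lowest adjusted p was that of mt-Atp8, 0.209. The gene pairs mt-Atp8 with mt-Atp6 and mt-Nd4l with mt-Nd4 overlap on the same strand, so their counts are less certain.

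These values rested largely on mouse 5. The Nrf2 eyes of mice 1 to 5 had 3795, 3469, 4282, 4747 and 4678 CPM of mt-Co3, and their control eyes 3549, 3217, 3622, 4531 and 2562 CPM. The control eye of mouse 5 was the lowest of all 10, while its Nrf2 eye was close to that of mouse 4. The levels of mt-Nd1 were 1306, 1225, 1161, 1410 and 973 CPM in control eyes and 1348, 1282, 1537, 1723 and 1736 CPM in Nrf2 eyes, in the same pattern. The median difference over the 13 genes was 0.02, 0.04, 0.38, 0.01 and 0.78 in mice 1 to 5, and within mouse 5 each of the 13 lay between 0.66 and 1.10. Without mouse 5 the median fitted value was 0.10, and all 13 genes were still above 0.

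**Figure D3:**
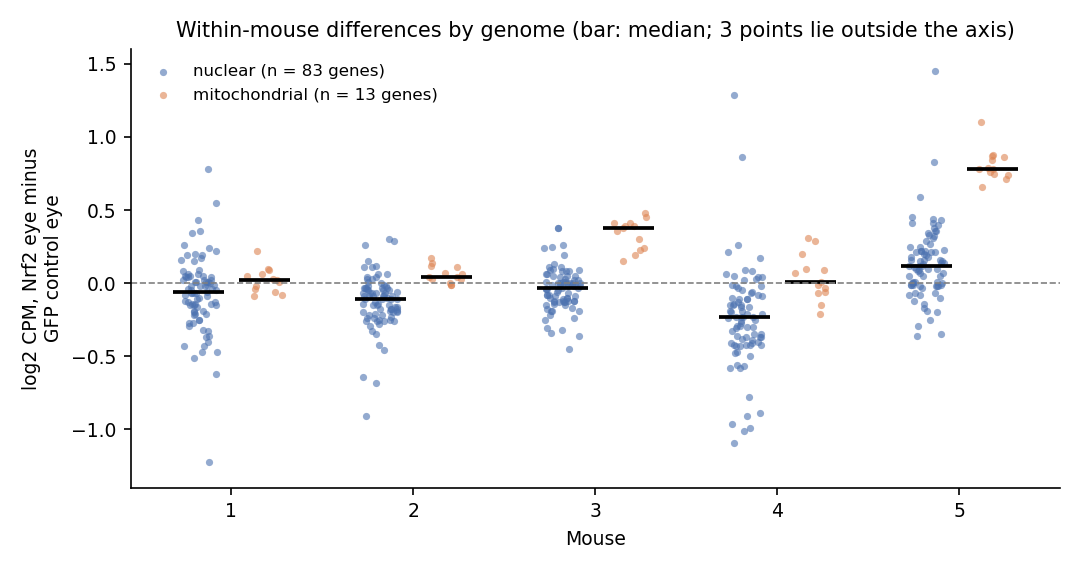
Within-mouse differences of log2 CPM, Nrf2 eye minus GFP control eye, for the 83 nuclear genes (blue) and 13 mitochondrial genes (orange), with black bars for the median in each mouse. The mitochondrial medians are 0.02, 0.04, 0.38, 0.01 and 0.78 and the nuclear medians -0.06, -0.11, -0.03, -0.23 and 0.12, and 3 points, of Cox6a2 and Ndufa4l2, lie beyond the axis limits of -1.4 and 1.6.

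The balance between the genomes was higher in the Nrf2 eye of each mouse. The 13 mitochondrial members took 1.61% ± 0.314 of all counts in control eyes and 1.90% ± 0.298 in Nrf2 eyes (SD, n = 5 each), and the nuclear members 1.41% ± 0.145 and 1.36% ± 0.100. The ratio of mitochondrial to nuclear summed counts stood at 1.23, 1.11, 1.08, 1.26 and 0.968 in control eyes (mice 1 to 5) and 1.32, 1.26, 1.32, 1.53 and 1.54 in their Nrf2 eyes. The Nrf2 eye was therefore higher by a factor of 1.07, 1.14, 1.22, 1.21 and 1.59, and the highest control eye stood level with the lowest Nrf2 eye at 1.26. These ratios need no scaling between libraries, and no p is given for a sum over members. The macrophage marker sums of the Nrf2 eyes were 688, 270, 490, 851 and 1461 CPM and their muscle marker sums 6.24, 21.6, 455, 285 and 673 CPM, and mouse 5 was the highest in both. With the muscle markers as a covariate the mitochondrial median was 0.20, with the rod markers 0.33, and the part of macrophage RNA in it was not tested.

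Levels per length spanned a wide range. On the scale of CPM per kilobase of exon in control eyes, the 83 tested nuclear members had a median of 81.4, from 0.867 (Ndufa4l2) to 688 (Cox8a), and the mitochondrial genes a median of 933, from 173 (mt-Nd4l) to 4460 (mt-Co3). Over the tested nuclear genes, the median was 69.9 for complex I, 85.5 for complex II, 104 for complex III, 89.3 for complex IV (16 of its 18 nuclear genes, since Cox7b2 at 0.472 and Cox8c at 0 were not tested) and 97.7 for complex V. Exon lengths are those of all annotated transcripts merged, so a gene with long rarely used exons is set too low.

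Complex IV has alternative isoforms that are known from muscle, lung or testis, and each had a lower mean level per length in control eyes than its common partner. The closest pair was Cox8b and Cox8a, at 382 and 688 CPM per kilobase. The common genes Cox4i1, Cox6a1, Cox6b1, Cox7a2, Cox7b, Cox8a and Ndufa4 had mean control levels from 129 CPM (Cox7b) to 483 CPM (Ndufa4), and log2 fold changes from -0.11 to 0.06. Among the alternative genes, Cox8c had 0 counts in all 10 libraries, which allows up to 0.110 to 0.244 CPM by library, and Cox7b2 had 0 to 8 counts. These 2 genes, both known from testis, were the ones not tested. Cox4i2, the lung and hypoxia isoform, had 1.73 ± 1.02 and 1.41 ± 0.557 CPM (log2 fold change -0.18, adjusted p = 0.858), and Ndufa4l2, also known from hypoxia, 0.949 ± 0.607 and 1.20 ± 0.644 CPM (0.36, adjusted p = 0.818). The testis isoform Cox6b2 was well detected, at 29.4 ± 9.27 and 30.1 ± 4.63 CPM (0.08, adjusted p = 0.887).

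The muscle isoform Cox6a2 had the largest difference of all members, and it was highest in the 3 eyes with the highest muscle marker sums. Its control eyes had 0.854, 0.538, 2.33, 2.34 and 1.13 CPM and its Nrf2 eyes 0.520, 0.664, 9.44, 5.86 and 11.9 CPM. The Nrf2 eyes of mice 3, 4 and 5 stood above all control eyes, and those of mice 1 and 2 lay among them or below (log2 fold change 1.40, SE 0.68, adjusted p = 0.260). The summed CPM of the 10 muscle markers was 104, 58.7, 107, 113 and 69.8 in control eyes and 6.24, 21.6, 455, 285 and 673 in Nrf2 eyes, with the same 3 eyes on top. In mouse 2 alone the 2 moved apart, with a lower muscle sum but slightly more Cox6a2 in the Nrf2 eye. With the mean log2 CPM of the 10 markers as a covariate, the log2 fold change of Cox6a2 was 1.01 (adjusted p = 0.0976 in edgeR). The part of muscle RNA in this difference was not tested. Without the covariate it was 0.85 when mouse 5 was left out and 1.90 when mouse 1 was left out. Cox7a1, also known from heart and muscle, had 4.41 ± 1.38 and 5.12 ± 2.23 CPM (0.15, adjusted p = 0.879).

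Cox8b, which is likewise known from heart and muscle, did not follow these markers. It had 102, 123, 173, 210 and 79.5 CPM in control eyes and 100, 65.5, 147, 106 and 120 CPM in Nrf2 eyes. The eye with the lowest muscle marker sum, the Nrf2 eye of mouse 1, still had 100 CPM of Cox8b, while it had 0.520 CPM of Cox6a2. The log2 fold change of Cox8b was -0.32 (SE 0.29, adjusted p = 0.568), with overlapping groups. It was -0.13 without mouse 2, -0.11 without mouse 4, -0.54 without mouse 5 and -0.07 with the rod covariate.

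**Figure D4:**
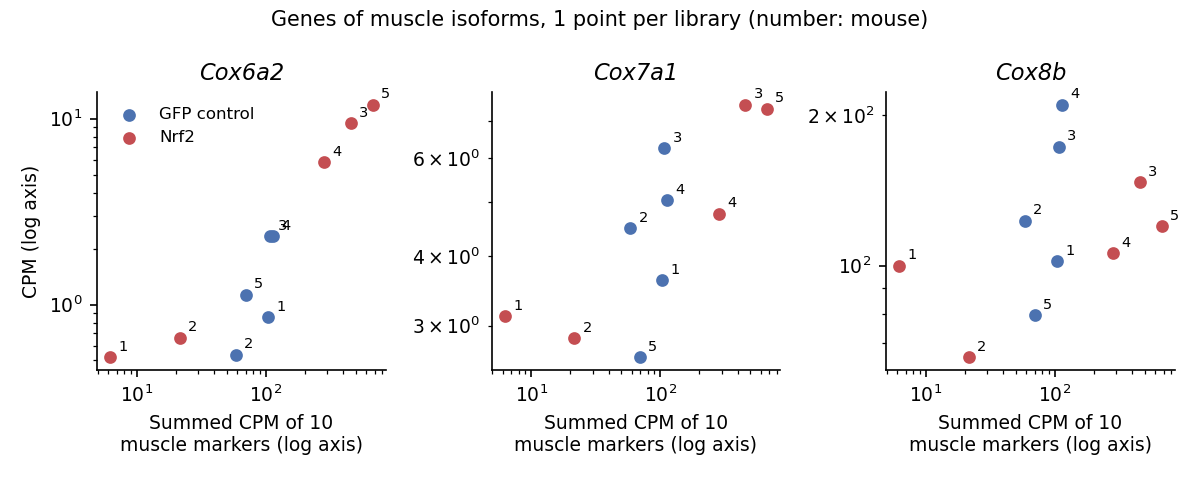
Levels of Cox6a2, Cox7a1 and Cox8b in CPM against the summed CPM of 10 muscle markers, both on log axes, with 1 point per library and the mouse as a number. Cox6a2 is highest in the Nrf2 eyes of mice 3, 4 and 5, which have muscle sums of 455, 285 and 673 CPM, while Cox8b lies between 65.5 and 210 CPM over the whole range.

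The c subunit of ATP synthase, which forms the rotating ring, is encoded by Atp5g1, Atp5g2 and Atp5g3, whose mature proteins are the same. Atp5g3 had 318 ± 38.6 CPM in control and 304 ± 34.6 CPM in Nrf2 eyes (log2 fold change -0.06, adjusted p = 0.832), Atp5g1 190 ± 64.3 and 186 ± 75.8 CPM (-0.06, adjusted p = 0.859), and Atp5g2 13.5 ± 2.70 and 15.4 ± 3.38 CPM (0.18, adjusted p = 0.685). Per length, Atp5g3 gave 68.3% to 83.0% of the c subunit RNA over the 10 libraries, Atp5g1 13.5% to 26.1% and Atp5g2 3.31% to 5.90%. Close copies of these genes exist, so the split of reads between them is uncertain.

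Atp5g1 differed between mice rather than between eyes. Its control eyes had 120, 143, 281, 179 and 224 CPM and the Nrf2 eyes of the same mice 122, 126, 275, 145 and 261 CPM. Both eyes of mice 3 and 5 were high and both eyes of mice 1 and 2 were low. The means of the 5 mice spanned 1.20 log2 units, while the largest difference between the eyes of a mouse was 0.30, a ratio of 3.94, where the median ratio was 0.863 over the members and 0.829 over all tested genes. It was the highest ratio of the 96 members, and 109 of all tested genes (0.666%) had a ratio as high. Atp5g1 was singled out for this after its values were seen.

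**Figure D5:**
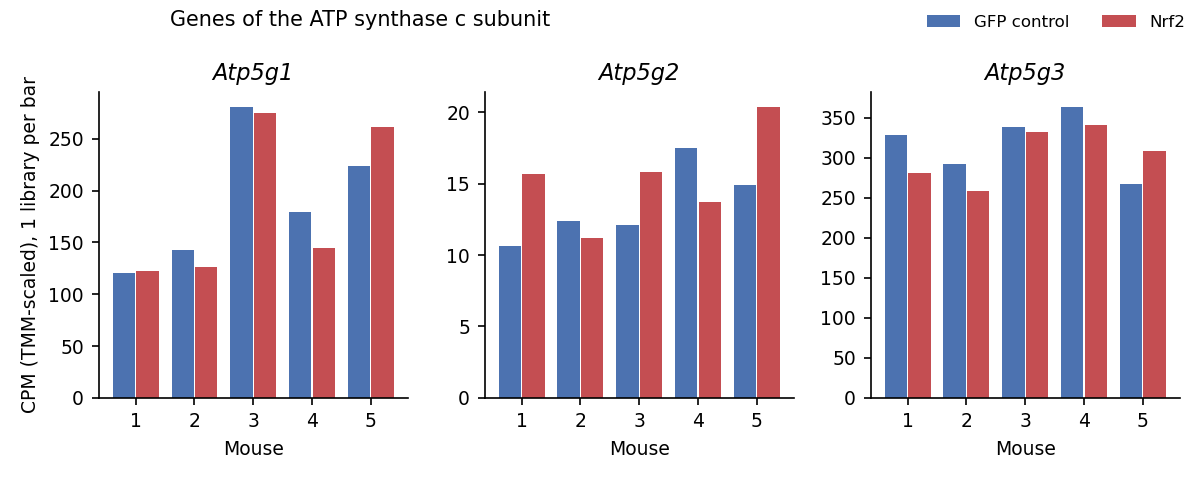
Levels of the 3 genes of the ATP synthase c subunit in TMM-scaled CPM, 1 bar per library, with the control eye (blue) and the Nrf2 eye (red) of each mouse side by side. The bars of Atp5g1 are near 280 CPM in both eyes of mouse 3 and near 120 CPM in both eyes of mouse 1, while Atp5g3 stays between 258 and 364 CPM.

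In the 6 lists of genes around the respiratory chain, 4 genes passed the test, against 6.33% of all tested genes. These lists held 17, 34, 20, 13, 20 and 78 tested genes. Of 17 assembly factor genes of complex I, 0 were called and the log2 fold changes ran from -0.29 to 0.12 (median -0.12), and 0 of 34 assembly factor genes of the other complexes were called (median -0.08). DESeq2 called 0 and 0 of them, and an unadjusted p under 0.05 in edgeR was found in 0 and 8, where it was found in 19.1% of all tested genes. Of 20 regulators of mitochondrial gene expression and biogenesis edgeR called 0 and DESeq2 0, and 3 had an unadjusted p under 0.05. Among them Nrf1, the gene of nuclear respiratory factor 1, had 30.2 ± 2.61 and 26.3 ± 2.46 CPM (-0.20, adjusted p = 0.300), Ppargc1a, the coactivator of biogenesis, 45.9 ± 6.31 and 40.8 ± 15.2 CPM (-0.23, adjusted p = 0.657), and Tfam, which packs mitochondrial DNA, 25.2 ± 4.69 and 25.3 ± 3.58 CPM (0.02, adjusted p = 0.974). These 3 were named after their values were seen.

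The 4 called genes were in the remaining lists. Of 13 TCA cycle genes 1 was lower, Sucla2, a subunit gene of succinyl-CoA ligase, with 214 ± 22.4 and 152 ± 21.6 CPM (-0.50, SE 0.06, adjusted p = 0.0196). Of 20 genes of electron carriers and coenzyme Q synthesis 1 was lower, Etfb of the electron transfer flavoprotein, with 252 ± 41.4 and 174 ± 30.6 CPM (-0.53, SE 0.10, adjusted p = 0.0318). Of 78 mitochondrial ribosome genes 1 was lower, Mrpl58 (109 ± 31.4 and 65.1 ± 14 CPM, -0.71, SE 0.19, adjusted p = 0.0426), and 1 higher, Mrps25 (33.3 ± 4.38 and 47.5 ± 3.89 CPM, 0.52, SE 0.09, adjusted p = 0.0333). Each moved the same way in 5 of 5 mice. DESeq2 called 2 lower in each of these 3 lists and 1 higher in the last, where it called 1798 of 16362 genes in all. An unadjusted p under 0.05 in edgeR was found in 2, 4 and 11 of their genes, against 19.1% of all tested genes. With the rod covariate all 4 missed the threshold, with adjusted p from 0.0612 to 0.113, at log2 fold changes of -0.50 for Sucla2, -0.43 for Etfb, -0.52 for Mrpl58 and 0.52 for Mrps25. Each of them also missed it when mouse 1, mouse 2 or mouse 3 was left out.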

How the data were processed

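PolyA RNA from the RPE of 5 Nrf2 and 5 GFP control eyes was sequenced. Per the study's methods, the authors aligned reads with STAR to mm10 with Ensembl release 91 and counted them with featureCounts, and estimated transcripts in parallel with Salmon (version 0.8.2 in the submitters' processing notes). The deposited values are whole-number counts per gene, not normalized. Which of the estimates was deposited, and the strand setting, are not given in the sources used here. All columns belonged to the 10 libraries (0 others).

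Symbols, positions and exon lengths came from GENCODE M21 (GRCm38, the build of the files), with an entry for 98.94% of genes. Genes were filtered by filterByExpr (16362 kept, 99.8% of counts) and tested with edgeR 4.0.16 in R 4.3.3: TMM scaling, quasi-likelihood F test, mouse as a block, Benjamini-Hochberg adjustment over all tested genes, threshold 0.05. The SE is the standard error of the mean of the 5 within-mouse log2 CPM differences, with a prior count of 2. The upper limit given for a gene without counts is 3 counts per library, for counting error only. The eyes of a mouse were paired by the animal number in the labels, and their deviations from the group means correlated at 0.19 to 0.71, against a median of -0.08 (-0.42 to 0.28) between mice. All libraries differed from each other beyond sampling noise (chi-square per degree of freedom at least 24.4). DESeq2 1.42.0, other scalings and filters, no block, marker covariates and each mouse left out were alternatives. The test was checked on simulated data.

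The genes and lists were chosen with earlier results of these data known. Named with values are called members, the 5 highest and 5 lowest members, the mitochondrial, Sdh, core and isoform genes, and called genes of the other lists. Ndufb3, Atp5g1 to Atp5g3, Ndufb4 and Ndufb4c, Rbm10, and the regulators were named after their values were seen. A gene under that rule is not reported here.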

Additional observations from a re-analysis of the deposited data

Results flagged for a closer look

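In 120 groups of 5 eyes (both groups of eyes for the named genes and the means of 6 gene groups), 2 had 1 eye that stood apart from the others by Dixon's criterion (gap over range above 0.71), where chance gives about 6. The Nrf2 eye of mouse 2 was low for Sdhb at 7.12 log2 CPM, with the others from 7.43 to 7.50. The Nrf2 eye of mouse 3 was high for Uqcrc2 at 7.15 log2 CPM, with the others from 6.94 to 7.0.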

How the results depend on the processing

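The Nrf2 eye and the control eye were compared with the mouse as a block. No replicate block gave the same 1 member, Ndufb11 (-0.61, adjusted p = 0.0407), and 755 genes in all, and it ended the calls of Etfb (adjusted p = 0.0778) and Mrpl58 (0.0767). The number of members called was 1 under DESeq2, other scalings, both filters and the muscle covariate, 0 with the rod covariate and 0 whichever mouse was left out. The number of all genes called was 1798 by DESeq2, 566 with the rod covariate and 584 to 857 with 1 mouse left out (584 without mouse 2, 613 without mouse 4 and 683 without mouse 5). The fits with 1 mouse left out also had fewer eyes, and the cause of these changes was not tested. The mitochondrial minus the nuclear median was 0.27 to 0.34 in the fits with all mice and 0.22 to 0.35 with 1 mouse left out.

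Members near 0 changed sign under some settings. Scaled without the mitochondrial genes, Sdhb stood at 0.02, Ndufv2 at 0.01, Cox6a1 at 0.03 and Cox7a2 at 0.01. With the rod covariate, Cox4i2 stood at 0.09, Cox6a1 at 0.05, Cox7a2 at 0.03 and Atp5g1 at 0.03. With 1 mouse left out, the log2 fold change ran from -0.11 to 0.10 for Sdha, -0.04 to 0.06 for Sdhb, -0.13 to 0.03 for Sdhc, -0.03 to 0.08 for Ndufs3, -0.07 to 0.04 for Ndufv1, -0.05 to 0.06 for Ndufv2, -0.14 to 0.03 for Atp5a1, -0.12 to 0.02 for Atp5b, -0.12 to 0.04 for Atp5g1. It ran from -0.13 to 0.01 for Atp5g3, -0.12 to 0.02 for Cox4i1, -0.40 to 0.04 for Cox4i2, -0.05 to 0.07 for Cox6a1, -0.11 to 0.20 for Cox6b2, -0.17 to 0.39 for Cox7a1, -0.06 to 0.06 for Cox7a2, -0.08 to 0.16 for Cox8a, -0.07 to 0.84 for Ndufa4l2. With 5 mice a difference under about the spread of the within-mouse values cannot be resolved, and members with few counts, such as Cox7b2 and Cox8c, cannot be read.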

Other observations

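Ndufb4, an accessory subunit gene of complex I, has a close copy, Ndufb4c, on chromosome 15 (73809507 to 73809896). Ndufb4c had 84.3 ± 13.8 CPM in control and 86.5 ± 10.3 CPM in Nrf2 eyes (SD, n = 5 each), above Ndufb4 itself with 31.4 ± 3.72 and 33.7 ± 4.97 CPM. How the counting split reads between them is not known, so the level of Ndufb4 is uncertain. Of the 85 nuclear members, 20 overlap another tested gene. Of those overlapping genes 0 were called by edgeR, where 6.33% of all tested genes were called, so few genes give little to read.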
